A study of Homo sapiens with 4 samples.

Results

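Complex I of the respiratory chain is built from the products of 2 genomes, and its mRNAs were followed here after silencing of PML in renal carcinoma cells. The members are 51 of the 59050 genes counted. They comprise 38 nuclear genes, taken as the gene names made of NDUF, one of the letters A, B, C, S, V or AB and a number, and the 13 protein-coding genes of the mitochondrial genome (names starting with MT-). Of these, 37 nuclear and 13 mitochondrial-encoded genes passed the filter on low counts, among 16516 genes tested.

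The cells were RCC4, a human clear cell renal carcinoma line that lacks a functional VHL protein, so that hypoxia-inducible factors are not degraded. They carried a doxycycline-inducible short hairpin RNA against PML (shPML) or a scrambled hairpin (shCtrl), as puromycin-selected populations rather than clones, and both groups received doxycycline at 100 ng/ml for 96 h. Each group has 2 libraries, replicates 1 and 2, from 2 experiments with independent lentiviral infections. PML encodes the scaffold protein of PML nuclear bodies, and the knockdown in these libraries rests on 1 hairpin against it.

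Complex I (NADH:ubiquinone oxidoreductase) takes electrons from NADH, passes them to ubiquinone and pumps protons across the inner mitochondrial membrane. Its matrix arm holds the flavin and the iron-sulfur clusters and is made of nuclear-encoded subunits. Its membrane arm has a proton-pumping core encoded by mitochondrial DNA, surrounded by nuclear-encoded accessory subunits. Mitochondrial DNA is transcribed from both strands into long precursors that are cut into mRNAs, rRNAs and tRNAs, whereas each nuclear gene has its own promoter. MT-ND6 is the mRNA of the list that is encoded on the other strand.

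Total counts ranged from 27781193 in shPML replicate 2 to 69870617 in shPML replicate 1. PML itself, the check of the labels, measured 93.1 and 136 counts per 1000000 counts (CPM) in shCtrl replicates 1 and 2 and 54.9 and 87.6 CPM in shPML replicates 1 and 2, so the groups did not overlap. The log2 fold change of PML was -0.69 (edgeR's quasi-likelihood test, adjusted p = 0.32), and -0.70 with the experiment as a block (adjusted p = 4.19e-07). The 8 renal line markers were present in every library, from 27.8 CPM upward, and of 7 markers of other cell types 3 had 0 counts in all libraries. The highest of the 7 was PTPRC, at 12.6 CPM in shPML replicate 2.

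The shPML replicate 2 library stood apart from the other 3. Of 12 genes known from monocytes and macrophages, a list chosen after the values were seen, 12 were highest in it, and their summed level, scaled to library totals alone, was 310.5 CPM there against 2.87 to 3.63 CPM in the other libraries. LYZ, which encodes lysozyme, had 84.6 CPM in that library and at most 0.0745 CPM elsewhere. In that library 69 genes exceeded 5 CPM while staying under 0.3 CPM in the other 3, and for each of the other libraries the number of such genes was 0. The part of these transcripts in the values below was not tested. The ratio within replicate 1, which does not use that library, is therefore given beside the main results, and in bulk RNA fewer cells of a type cannot be told apart from less RNA per cell.

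Some members share sequence with a neighbour, and reads on bases shared within a strand were not counted for either gene. The first 2 joins below hold such bases, and the third is shown for the change of strand. In the count table, the 862 genes whose every exon base is shared with another gene of the same strand all had 0 counts. Of 639 genes covered by another gene on the opposite strand only, 322 had counts. MT-ND4L and MT-ND4 share 7 bases and MT-ATP8 and MT-ATP6 share 46 bases. MT-ND5 and MT-ND6 abut on opposite strands with 0 bases between them. The stretches are given 5′ to 3′ on the forward strand of GRCh38, from the reference genome, at chrM:10749-10778, chrM:8512-8541 and chrM:14134-14163. Capitals mark bases in both genes on the first and the second line (of the longer overlap, its first bases), and the bases of MT-ND6 on the third.
MT-ND4L to MT-ND4: aacctactccaATGCTAAaactaatcgtcc
MT-ATP8 to MT-ATP6: accctgagaaccaaaATGAACGAAAATCTG
MT-ND5 to MT-ND6: ctcctaatcacataaCCTATTCCCCCGAGC

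Among the nuclear members, 28 of 38 shared no exon base with another gene of their strand. The fraction of exon bases free of such overlap was 24.1% for NDUFA7, 34.6% for NDUFB8 and 57.4% for NDUFV2, a core subunit with an iron-sulfur cluster. NDUFA7 had 3 and 2 counts in shCtrl and 9 and 2 counts in shPML, and was not tested. NDUFV2 had 4 and 11 counts in shCtrl and 19 and 2 counts in shPML. Reads on shared exons were not counted, and the part of this in the low counts was not tested. NDUFB8 had 636 and 302 counts in shCtrl and 1012 and 209 counts in shPML. The low counts of NDUFA7 and NDUFV2 are therefore not read here as low expression.

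To ask whether PML silencing altered complex I mRNAs, each member was compared between shPML and shCtrl. Calls required a log2 fold change beyond 0.5 in either direction together with an adjusted p below 0.05. No member was called by edgeR without the block, that is 0 of 37 nuclear and 0 of 13 mitochondrial-encoded genes, where 0.0787% of all genes tested were called higher and 0.333% lower. Before adjustment, p was below 0.05 for 2 nuclear members, NDUFB7 and NDUFC2, both lower, and for 0 mitochondrial-encoded ones. By that rule 1669 of all 16516 genes tested were lower and 1289 higher. DESeq2 without the block called 1 member, NDUFB7, lower, where it called 898 of all genes lower and 577 higher. With the experiment as a block, edgeR called 1 nuclear member higher (2.7% of 37), where 8.57% of all genes were called higher, and 1 lower (2.7%), where 10.5% of all genes were called lower. It called 1 mitochondrial-encoded member lower (7.69% of 13) and 0 higher. Each of these shares was below that of all genes, and this difference was not tested.

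NDUFB7, an accessory subunit of the membrane arm on the intermembrane-space side, was the member called lower. Its gene lies at chr19:14566078-14572066 on the reverse strand. It measured 84.9 and 91.5 CPM in shCtrl replicates 1 and 2, and 46.9 and 57.6 CPM in shPML replicates 1 and 2. Both shPML libraries were below both shCtrl libraries, whose mean was 88.2 ± 4.63 CPM (SD, n = 2) against 52.3 ± 7.56 CPM (SD, n = 2) with shPML. The log2 ratio was -0.86 within replicate 1 and -0.67 within replicate 2. The log2 fold change was -0.76 with an SE of 0.17 (edgeR, adjusted p = 0.113). With the block it was -0.76 with an SE of 0.11 (edgeR, adjusted p = 1.61e-07). Without shPML replicate 2 it was -0.90, in the fit without the block.

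NDUFB10, another accessory subunit of the membrane arm, was the member called higher. Its gene is at chr16:1959538-1961975 on the forward strand. It measured 47.9 and 74.8 CPM in shCtrl replicates 1 and 2, and 77.1 and 104 CPM in shPML replicates 1 and 2. The groups did not overlap, but shCtrl replicate 2 was close to shPML replicate 1. The log2 ratio was 0.69 within replicate 1 and 0.48 within replicate 2. The log2 fold change was 0.56 with an SE of 0.28 without the block (edgeR, adjusted p = 0.371). With the block it was 0.58 with an SE of 0.11 (edgeR, adjusted p = 2.74e-05). Without shPML replicate 2 the unblocked value was 0.34, and over the libraries left out it ran from 0.28 (without shCtrl replicate 1) to 0.92 (without shCtrl replicate 2). Both subunits belong to the same arm, and their count ratio, NDUFB10 over NDUFB7, was 0.564 and 0.818 in shCtrl and 1.64 and 1.81 in shPML. The pair was taken for its opposite calls in these same libraries, so the ratio restates those calls and is no separate support.

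At any fold change, edgeR with the block gave an adjusted p under 0.05 to 5 nuclear members that were higher (13.5% of 37), where 14.5% of all genes tested were higher by that rule. It gave one to 2 that were lower (5.41%), where 15.7% of all genes were lower. The higher members described besides NDUFB10 are NDUFV1, a core subunit of the matrix arm, NDUFB2, an accessory subunit of the membrane arm, and NDUFAB1, the mitochondrial acyl carrier protein. NDUFV1, which binds NADH and the flavin, measured 124 and 132 CPM in shCtrl and 148 and 176 CPM in shPML. Its blocked log2 fold change was 0.34 (edgeR, adjusted p = 0.00821), with a log2 ratio of 0.25 within replicate 1. Both shPML libraries were above both shCtrl libraries.

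NDUFAB1 measured 25.6 and 29.9 CPM in shCtrl and 34.6 and 35.3 CPM in shPML, and the groups did not overlap. Its blocked log2 fold change was 0.34 (edgeR, adjusted p = 0.0307), DESeq2 with the block gave an adjusted p of 0.108, and the log2 ratio was 0.44 within replicate 1. NDUFB2 measured 123 and 95.7 CPM in shCtrl and 153 and 117 CPM in shPML, so the groups overlapped while the difference within each replicate was 0.32 and 0.29 on the log2 scale.

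The other member lower by that rule was NDUFC2, an accessory subunit of the membrane arm, with 21.2 and 21.4 CPM in shCtrl and 16.7 and 13.7 CPM in shPML. Its blocked log2 fold change was -0.49 (edgeR, adjusted p = 0.00444), within the fold limit of a call. DESeq2 with the block gave an adjusted p of 0.0695, and the log2 ratio was -0.35 within replicate 1. Reads on exons it shares with the read-through gene NDUFC2-KCTD14 were not counted, and 81.4% of its exon bases were free of overlap. NDUFB6, NDUFA5 and NDUFS6 were the next lowest members with the same sign in both replicates. NDUFB6 measured 22.9 and 24.6 CPM in shCtrl and 20.0 and 17.6 CPM in shPML, and NDUFA5 measured 33.9 and 46.5 CPM in shCtrl and 31.3 and 33.8 CPM in shPML. For neither gene did the groups overlap, but for NDUFA5 shCtrl replicate 1 (33.86 CPM) was close to shPML replicate 2 (33.82 CPM). NDUFS6 measured 28.3 and 44.6 CPM in shCtrl and 24.5 and 35.2 CPM in shPML, and these groups overlapped. None of the 3 reached an adjusted p of 0.05 in either edgeR fit.

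**Figure D1:**
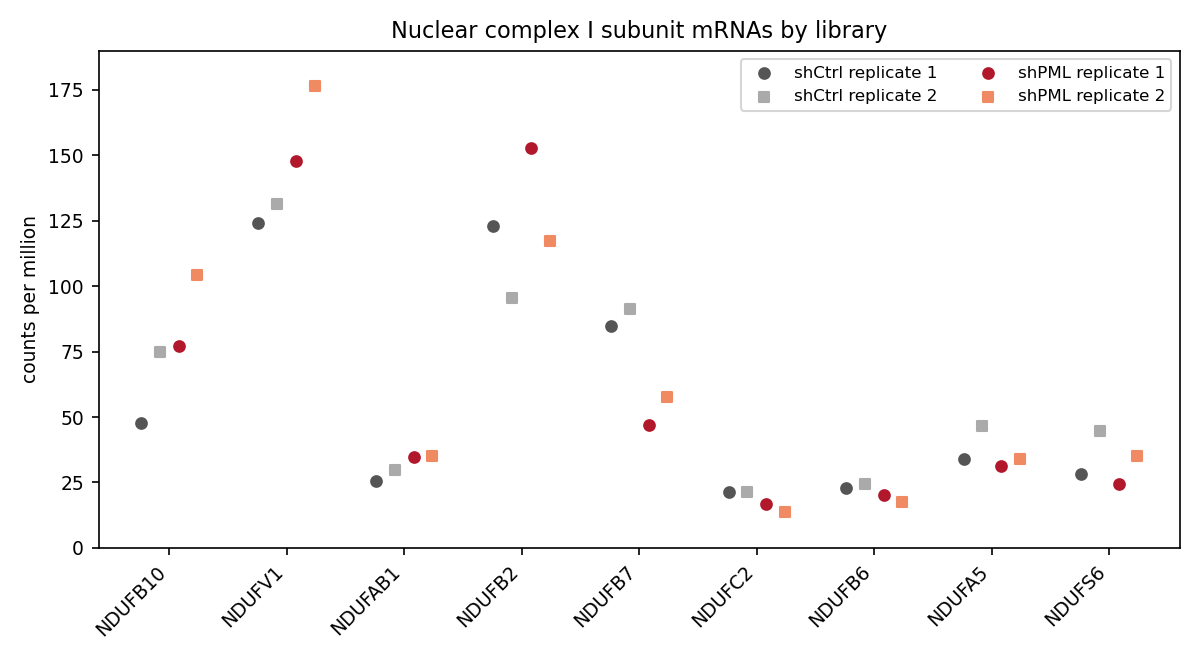
CPM (vertical axis, linear from 0) of 9 nuclear members with high or low log2 fold changes and the same sign in both replicates, 1 point for each library. Circles are replicate 1 and squares replicate 2, and both shPML points lie below both shCtrl points for NDUFB7 and above them for NDUFB10.

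By position in the complex, the 7 core subunits of the matrix arm had a median log2 fold change of 0.21 (range -0.03 to 0.34), against 0.01 for all genes tested. In 6 of the 7 the ratio was above 0 in both replicates, and the remaining one was NDUFV2. Over all genes tested, 37% were above 0 and 37.1% below 0 in both replicates. Of the 7, 0 were called, where edgeR with the block called 8.57% of all genes higher and 10.5% lower. In that fit 2 of the 7 were higher with an adjusted p under 0.05, where this held for 14.5% of all genes. The 8 tested accessory subunits of the matrix arm had a median of -0.08 (range -0.30 to 0.21), with 2 above 0 and 4 below 0 in both replicates. The 20 accessory subunits of the membrane arm had a median of 0.08, with 7 above and 4 below 0 in both replicates, and they included both called members. NDUFA4, which keeps its NDUF name but is a subunit of complex IV, measured 156 and 88.6 CPM in shCtrl and 176 and 90.1 CPM in shPML.

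Over the 37 nuclear members tested, 26 (70.3%) had a blocked log2 fold change within 0.25 of 0, where this held for 41.4% of all genes tested. It also held for 33 of 38 nuclear subunits of complexes II to V and for 10 of 13 mitochondrial-encoded members. In both replicates 17 (45.9%) nuclear members were above 0 and 8 (21.6%) below 0, where these shares were 37% and 37.1% over all genes. In 11 of the 37 (29.7%) both shPML libraries were above both shCtrl libraries, where this held for 23.1% of all genes tested. In 4 (10.8%) both were below, where this held for 24.9% of all genes. The median log2 ratio of the nuclear members was 0.16 within the first experiment and -0.11 within the second, so the experiments differed in sign. Without NDUFV2, whose counts are too low to read, these medians were 0.15 and -0.06. The share of all counts on the 38 nuclear genes was 0.216% and 0.199% in shCtrl and 0.244% and 0.210% in shPML.

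The sequence upstream of the called members is shown with 2 members that carry a word typical of nuclear respiratory genes. RefSeq promoters (GRCh38.p14, 250 bases before to 50 after the gene start) were at hand for 32 of the 38 nuclear members. The word GCGCANGCG, the core of the site of NRF1, was present on either strand in 9 of them (28.1%) and in 8.05% of all 27305 promoters. The word AAGATGGC, of the YY1 type, was in 6 (18.8%) against 3.03% of all promoters. CCGGAAG, of the ETS type, was in 5 (15.6%) against 10.7%, and GGGCGG, the GC box, was in 20 (62.5%) against 44.6%. NDUFB7 held CCGGAAG and GGGCGG, and NDUFB10 held only GGGCGG of these words. The windows below are on the strand of the gene, at chr19:14572072-14572101, chr16:1959508-1959537, chr5:1801351-1801380 and chr16:23596342-23596371. Capitals mark CCGGAAG in NDUFB7, the reverse complement of GGGCGG in NDUFB10, and GCGCANGCG or its reverse complement in NDUFS6 and NDUFAB1.
NDUFB7: gcctaaatgacCCGGAAGctgtgtctgact
NDUFB10: gcgcagacgcagCCGCCCtcggcgtcctct
NDUFS6: cagaagccgtGCGCATGCGttagcgctaag
NDUFAB1: ccgtgtgcgtCGCCTGCGCgccgccggaaa
A match of letters is a description and not a measured site. The last 2 genes share the NRF1 word, and their log2 fold changes were -0.29 for NDUFS6 and 0.33 for NDUFAB1. These were the lowest and the highest of the 9 members with that word, and neither was called. The others lay between -0.15 (NDUFA9) and 0.21 (NDUFS7). A relation of the word to the changes was not tested.

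The mitochondrial-encoded mRNAs were far more abundant. The 13 genes took 4.29% and 3.78% of all counts in shCtrl and 4.12% and 3.65% in shPML. Levels are also given in reads per kilobase per 1000000 counts (RPKM), which takes the length of a gene into account. The mean over the 4 libraries ran from 91.2 RPKM for MT-ND6 to 6968 RPKM for MT-CO2, the second subunit of cytochrome c oxidase. MT-CO1 followed at 5853 and MT-ND4 at 5642 RPKM. The nuclear members, leaving out NDUFA7 and NDUFV2 for their low counts, ran from 2.17 RPKM for NDUFA9 to 276 RPKM for NDUFS5. The length used is that of all annotated exons of a gene together, which lowers the RPKM of genes with many long isoforms. MT-ND4L had 1690 RPKM although it is carried on the same mature mRNA as MT-ND4, so these levels compare genes only roughly. The libraries were made with an mRNA protocol, and how evenly it kept each mRNA was not tested.

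**Figure D2:**
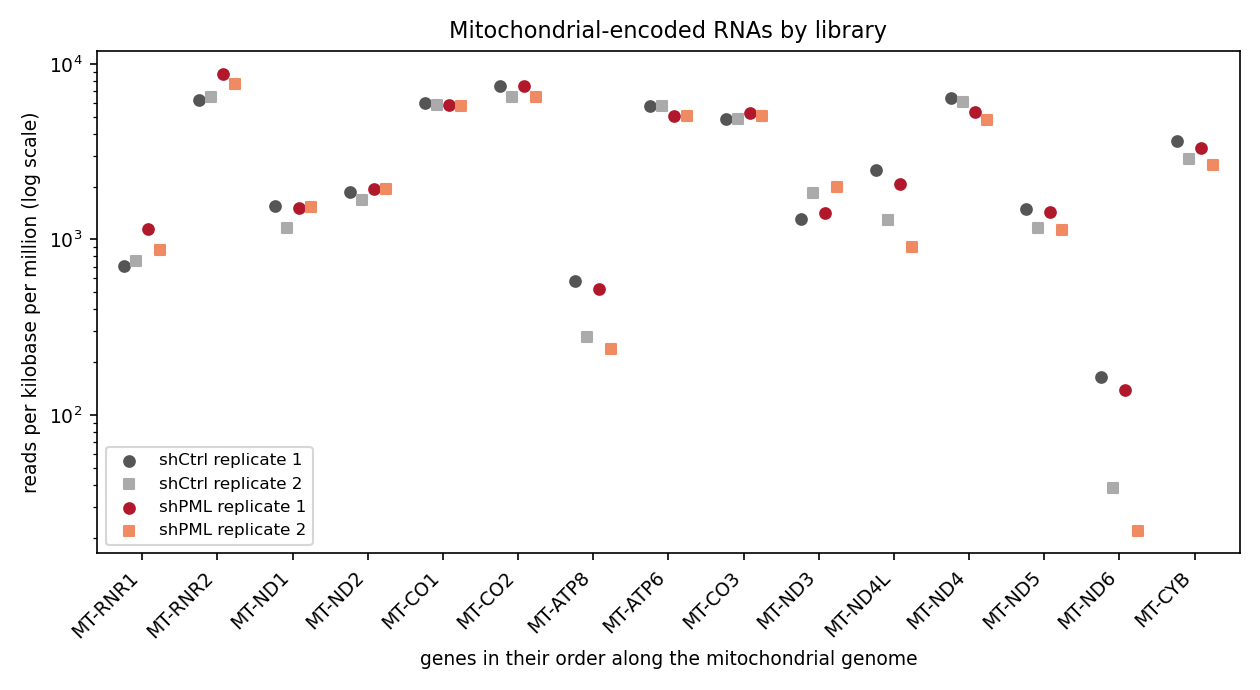
RPKM (vertical axis, log scale) of the 2 mitochondrial rRNAs and the 13 protein-coding genes in each library, with genes in their order along the mitochondrial genome. Circles are replicate 1 and squares replicate 2; MT-ND6, MT-ATP8 and MT-ND4L separate by replicate, and MT-RNR1 and MT-RNR2 are highest in the shPML libraries.

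Of the 7 complex I genes of mitochondrial DNA, MT-ND4, MT-ND4L and MT-ND6 had an adjusted p under 0.05 in edgeR with the block, all lower in shPML. These are 3 of 13 mitochondrial-encoded members (23.1%, where 15.7% of all genes were lower by that rule). MT-ND4 and MT-ND4L are carried on the same mature mRNA, so this share counts genes and not separate mRNAs. MT-ND4, a proton-pumping subunit, measured 8832 and 8327 CPM in shCtrl and 7349 and 6591 CPM in shPML. Both shPML libraries were below both shCtrl libraries. Its log2 ratio was -0.27 within replicate 1 and -0.34 within replicate 2, with a blocked log2 fold change of -0.30 (edgeR, adjusted p = 0.000982).

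MT-ND4L, which is carried on the same mature mRNA as MT-ND4, measured 741 and 381 CPM in shCtrl and 617 and 268 CPM in shPML. Here the replicates differed more than the groups, which overlapped. The ratio was -0.26 within replicate 1 and -0.51 within replicate 2 on the log2 scale, with a blocked log2 fold change of -0.38 (edgeR, adjusted p = 0.00106).

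MT-ND6 measured 87.1 and 20.3 CPM in shCtrl and 72.6 and 11.6 CPM in shPML. The libraries were made with an mRNA protocol, and how fully it kept this mRNA was not tested. Replicate 1 was 4.29-fold above replicate 2 in shCtrl and 6.28-fold above it in shPML, so the experiments differed far more than the conditions. With the block MT-ND6 was called lower, with a log2 fold change of -0.50 (edgeR, adjusted p = 0.00141) that is barely past the limit. Its log2 ratio was -0.26 within replicate 1 and -0.81 within replicate 2, the replicate that holds the library standing apart. Without the block it was -0.35 with an SE of 0.98 (edgeR, adjusted p = 0.914).

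The other 4 complex I genes of mitochondrial DNA had no adjusted p under 0.05 in either edgeR fit. MT-ND1 measured 1488 and 1108 CPM in shCtrl and 1452 and 1458 CPM in shPML, with ratios of opposite sign in the replicates. MT-ND2 measured 1951 and 1755 CPM in shCtrl and 2029 and 2009 CPM in shPML, and its groups did not overlap. MT-ND3 measured 455 and 636 CPM in shCtrl and 489 and 687 CPM in shPML, and was higher in replicate 2 of both groups. MT-ND5 measured 2700 and 2096 CPM in shCtrl and 2585 and 2052 CPM in shPML, with ratios near 0. The count ratio MT-ND4 over MT-ND1 was 5.93 and 7.52 in shCtrl and 5.06 and 4.52 in shPML, all lower in shPML.

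The 6 mitochondrial-encoded members of complexes III, IV and V had blocked log2 fold changes between -0.20 and 0.09. MT-ATP6, a proton-channel subunit of ATP synthase, measured 3923 and 3929 CPM in shCtrl and 3415 and 3426 CPM in shPML. Its 2 libraries of each group lay close together and the groups did not overlap, with a blocked log2 fold change of -0.20 (edgeR, adjusted p = 0.0514) and a log2 ratio of -0.20 within replicate 1. MT-CO1 measured 9267 and 8964 CPM in shCtrl and 8982 and 8889 CPM in shPML, and MT-CO2 5101 and 4445 CPM in shCtrl and 5104 and 4413 CPM in shPML. For MT-CO2 the log2 ratio was 0.00 within replicate 1 and -0.01 within replicate 2. MT-CO3 measured 3799 and 3806 CPM in shCtrl and 4133 and 3941 CPM in shPML, above the controls in both libraries. MT-CYB, the cytochrome b of complex III, measured 4131 and 3255 CPM in shCtrl and 3800 and 3039 CPM in shPML. MT-ATP8 measured 120 and 57.9 CPM in shCtrl and 108 and 49.2 CPM in shPML, again split by replicate.

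Of the 13 mitochondrial-encoded members, 2 (15.4%) had both shPML libraries above both shCtrl libraries, where this held for 23.1% of all genes tested. In 2 (15.4%) both were below, where this held for 24.9%. For 9 of the 13 the experiments differed more than the conditions, as for 20 of 36 nuclear members. These are 69.2% and 55.6%, where this held for 46.1% of 16132 genes with a count in every library. The mean log2 difference of replicate 2 from replicate 1 ran from -2.38 (MT-ND6) to 0.49 (MT-ND3) among the mitochondrial-encoded mRNAs and from -0.89 to 0.99 among the nuclear ones. Members of one genome thus differed from one another in size and sign of this difference. MT-ND4L (-0.96 in shCtrl and -1.20 in shPML) and MT-ND4 (-0.085 and -0.16) differed although they are carried on the same mature mRNA. These values therefore describe counted genes and not separate mRNAs, and their cause was not tested.

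**Figure D3:**
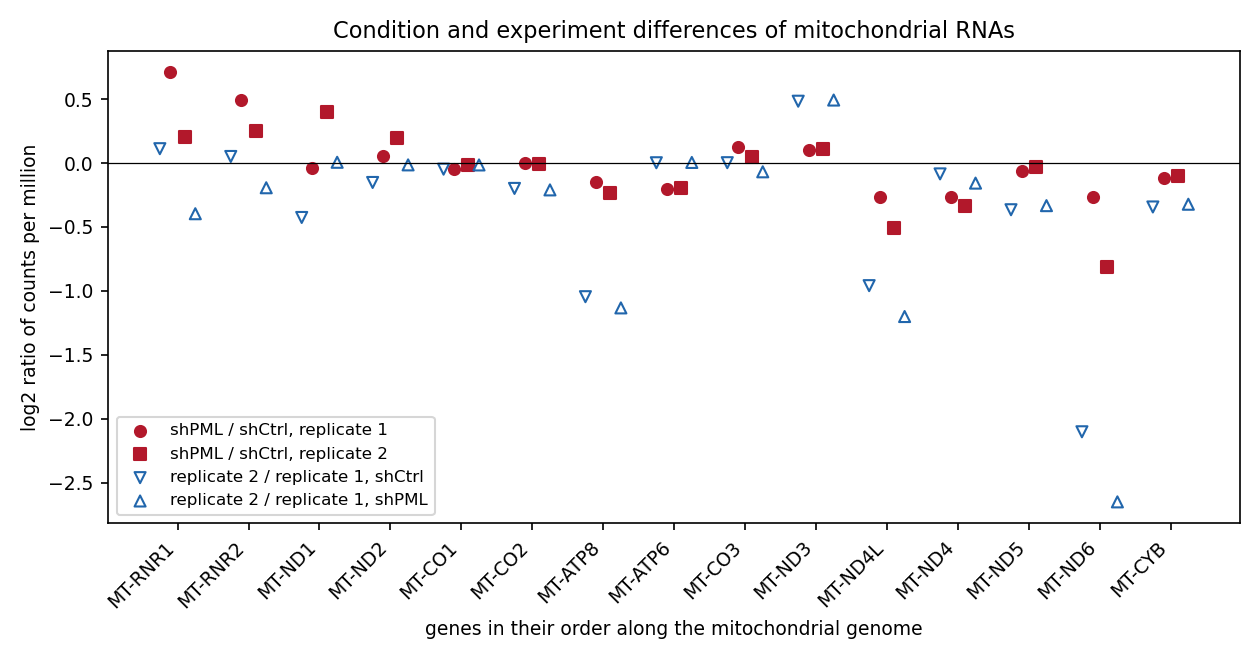
Log2 ratios of CPM for each mitochondrial RNA in gene order: filled red symbols give shPML over shCtrl within each replicate, open blue triangles replicate 2 over replicate 1 within each group. The condition ratios of the mRNAs lie between -0.81 and 0.40, and the experiment ratio of MT-ND6 reaches -2.65.

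Taken as a difference of medians, the contrast of the genomes did not exceed the spread between replicates. The median log2 fold change was -0.05 over the 13 mitochondrial-encoded members and 0.11 over the 37 nuclear members, a difference of -0.16. The same difference was -0.22 in replicate 1 and 0.08 in replicate 2, so its sign was not shared (SD over the replicates 0.21). Without NDUFV2 it was -0.21 and 0.03. With a library left out, the difference ran from -0.27 to -0.02 (lowest in size without shCtrl replicate 1, at -0.02). When counts were summed instead, the ratio of mitochondrial-encoded to nuclear member counts was 19.9 and 18.99 in shCtrl and 16.9 and 17.4 in shPML. Both shPML libraries were below both shCtrl libraries, by -0.24 within replicate 1 and -0.13 within replicate 2 on the log2 scale. Replicate 2 differed from replicate 1 by -0.07 in shCtrl and 0.04 in shPML, so the summed ratio kept its sign. For the 7 MT-ND genes alone the ratio to the nuclear members was 7.59 and 7.01 in shCtrl and 6.13 and 6.16 in shPML. An exact two-sided permutation test of the log2 ratios gave p = 0.333 for each of these sums, the smallest p that 2 libraries against 2 allow. A sum is led by its most abundant genes, such as MT-CO1 and MT-ND4, whereas the median weighs each gene alike.

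**Figure D4:**
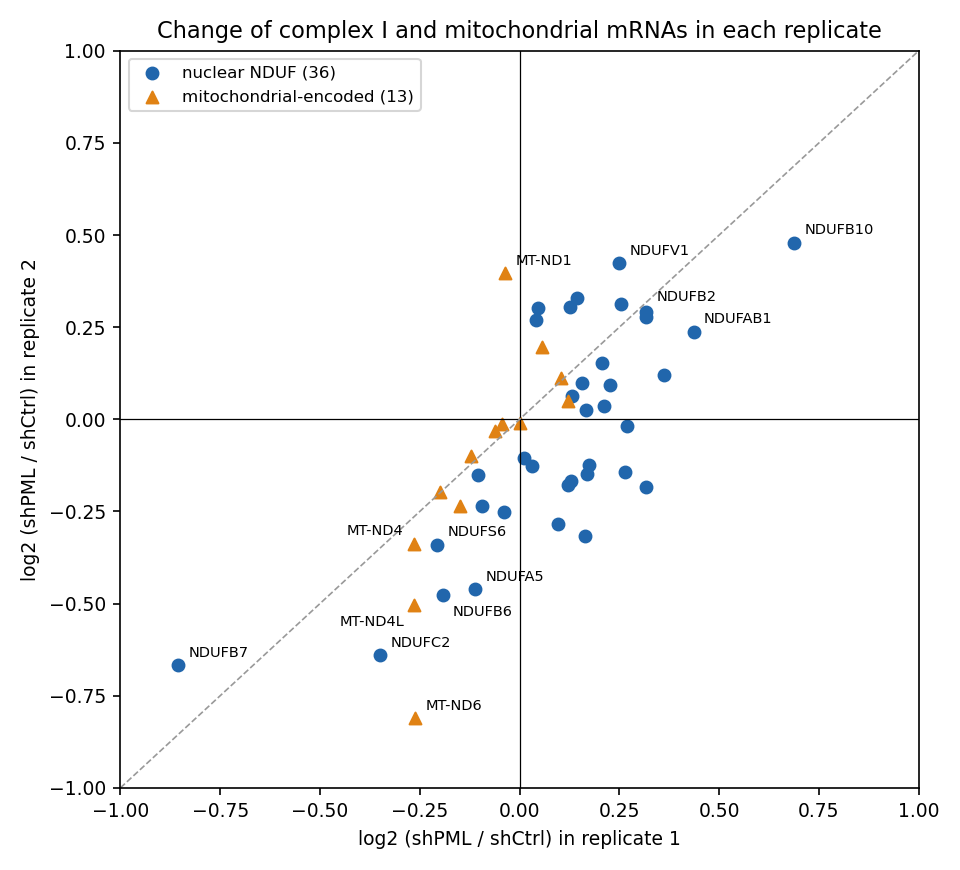
Log2 ratio of shPML to shCtrl in replicate 1 (horizontal axis) and replicate 2 (vertical axis) for 36 nuclear members (circles) and 13 mitochondrial-encoded members (triangles); the dashed line marks equal ratios. NDUFB7 (-0.86 and -0.67) and NDUFB10 (0.69 and 0.48) lie farthest out along it, and most other members lie near 0.

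The mitochondrial rRNAs, from the same genome but no members, were higher in shPML. MT-RNR2, the large ribosomal RNA, measured 9716 and 10067 CPM in shCtrl and 13707 and 11988 CPM in shPML, with a blocked log2 fold change of 0.37 (edgeR, adjusted p = 3.64e-05). MT-RNR1, the small one, measured 669 and 723 CPM in shCtrl and 1095 and 832 CPM in shPML, with 0.46 (edgeR, adjusted p = 0.000135). Their log2 ratios were 0.50 for MT-RNR2 and 0.71 for MT-RNR1 within replicate 1, and 0.25 and 0.20 within replicate 2. Neither passed the fold limit of a call, and neither had an adjusted p under 0.05 without the block. The count ratio of rRNA to the 13 mitochondrial-encoded members was 0.244 and 0.278 in shCtrl and 0.369 and 0.348 in shPML. The libraries were made with an mRNA protocol, so the rRNA levels are not those of total RNA.

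Among related genes, NDUFA4L2, the paralog of NDUFA4 that hypoxia-inducible factors are known to switch on, measured 260 and 371 CPM in shCtrl and 445 and 779 CPM in shPML. Its groups did not overlap, its log2 ratio was 0.78 within replicate 1 and 1.07 within replicate 2, and the blocked log2 fold change was 0.92 (edgeR, adjusted p = 9.25e-12). Without the block it was 0.96 (edgeR, adjusted p = 0.224). COX4I2, a hypoxia-linked subunit of complex IV, had 0 counts in all 4 libraries.

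The lists of other genes of the pathway were counted in the blocked fit, against the same 8.57% and 10.5% of all genes. Of 19 complex I assembly factors, 1 was called higher and 0 lower. It was NDUFAF8, with 20.9 and 22.3 CPM in shCtrl and 31.2 and 36.2 CPM in shPML and a blocked log2 fold change of 0.64 (edgeR, adjusted p = 4.39e-05). Its log2 ratio was 0.58 within replicate 1. Of 38 nuclear subunits of complexes II to V, 0 were called higher and 2 lower. These were SDHD, a membrane anchor of succinate dehydrogenase, at -0.56, and ATP5MC1, which encodes a c subunit of ATP synthase, at -0.56 (blocked log2 fold changes). Their log2 ratios within replicate 1 were -0.40 and -0.48. The groups of SDHD did not overlap. Those of ATP5MC1 did, with 58.3 CPM in shCtrl replicate 2 and 58.4 CPM in shPML replicate 1.

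Of 18 genes of mitochondrial transcription and DNA maintenance, 1 was called higher, the rRNA methyltransferase gene TFB1M at a blocked log2 fold change of 0.67, and 2 lower, MTERF3 at -0.54 and the topoisomerase gene TOP3A at -0.52. TFB1M measured 24.5 and 17.2 CPM in shCtrl and 39.3 and 27.1 CPM in shPML, a log2 ratio of 0.68 within replicate 1. Within that replicate the ratios were -0.32 for MTERF3 and -0.54 for TOP3A. Of 20 genes of mitochondrial RNA processing and stability, 0 were called higher and 2 lower, FASTKD3 at -0.56 and PTCD1 at -0.63 (-0.26 and -0.37 within replicate 1), and DESeq2 with the block called 0 of the 20. Of 10 regulators of nuclear respiratory genes, 0 were called in either direction, with a median log2 fold change of -0.22. None of these lists had a call by edgeR without the block. There an unadjusted p under 0.05 was reached by 1 higher and 1 lower assembly factor. It was also reached by 1 lower gene of transcription and maintenance and 1 lower gene of RNA processing. By that rule 1289 of all 16516 genes tested were higher and 1669 lower.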

How the data were processed

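Gene-level RNA was measured in RCC4 cells, in 2 shCtrl and 2 shPML libraries. The authors made stranded mRNA libraries, read single ends, trimmed them with Trimmomatic 0.39, used STAR for alignment to GRCh38 and featureCounts 1.6.4 for counting. The deposited values are raw counts, not normalized. The 2 columns without a replicate number were taken as replicate 1. The record states that 2 sample labels were once exchanged and corrected. Counts were filtered with filterByExpr, scaled by TMM and fitted with edgeR 4.0.16 (quasi-likelihood, Benjamini-Hochberg adjustment over 16516 genes). Alternatives used DESeq2 1.42.0, RLE, other filters, library sizes without mitochondrial rows, the replicate block and each library left out. The methods state independent infections, and replicate numbers were read as these experiments; the deviations of the replicate 1 libraries correlated at 0.546 over genes. All p-values measure the spread between these libraries only. Named nuclear members are those called, plus the 5 highest and 5 lowest with the same sign in both replicates; from other lists up to 2 called genes a direction. The values of 1 member are not reported here. Members and lists were chosen with earlier results of these data known. The fits were tested on simulated data.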

Additional observations from a re-analysis of the deposited data

How the results depend on the processing

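The number of genes called was 68 without the replicate block and 3150 with it in edgeR, 1475 and 2495 in DESeq2 without and with the block, 0 with RLE scaling, 1837 with no filter, 197 with at least 10 counts in every library, 3162 with the block and library sizes without mitochondrial rows, and 3 to 40 with a library left out. The 68 calls were also called in both blocked fits and in DESeq2 without the block. Nuclear members called higher were 1 in place of 0 in the 3 fits with the replicate block, and mitochondrial-encoded members called lower were likewise 1 in place of 0. Nuclear members called lower were 1 in place of 0 in these 3 paired fits, in DESeq2 without the block and with no filter. Leaving out a library gave medians of -0.0905 to 0.21 for the nuclear and -0.20 to 0.12 for the mitochondrial-encoded members; the nuclear median was -0.0905 without shPML replicate 1. Without NDUFV2, an alternative chosen after seeing the data, the nuclear median was 0.11 and the contrast of the genomes -0.16. With a library left out, the lone library of its group is assumed to vary like the others. The direction changed within the ranges of MT-ND6 (-2.22 to 1.06), MT-ND4L (-1.06 to 0.22), MT-ATP8 (-0.85 to 0.44), MT-ND3 (-0.15 to 0.37), MT-ND5 (-0.22 to 0.15), MT-CYB (-0.28 to 0.0708), MT-ND1 (-0.0336 to 0.39), NDUFS6 (-0.58 to 0.076) and MT-CO2 (-0.11 to 0.11), all log2 fold changes without the block. MT-CO2 was also above 0 at 0.0087 and 0.0085 in DESeq2 without and with the block, 0.0087 with RLE, 0.0045 with no filter and 0.0103 with at least 10 counts. For these changes the cause was not tested. With a library left out, the groups hold the experiments in unequal shares. The log2 ratios within replicates 1 and 2 shared their sign for MT-ND6 (-0.26 and -0.81) and MT-ND4L (-0.26 and -0.51). They also shared it for MT-ATP8 (-0.15 and -0.24), MT-ND3 (0.10 and 0.11), MT-ND5 (-0.06 and -0.03) and MT-CYB (-0.12 and -0.10). NDUFS6 had -0.21 and -0.34. The signs differed for MT-ND1 (-0.04 and 0.40), and MT-CO2 had 0.00 and -0.01. A blocked fit without a library has no residual degrees of freedom and was not run. Reads of mitochondrial genes and of their near-identical nuclear copies, such as MTATP6P1 at 619 to 775 CPM, cannot be told apart with certainty; of 6 such copies tested, 0 were called with the block.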

Other observations

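Genes outside complex I set shPML replicate 2 apart. CD14 had 42.4 CPM in it and at most 0.108 CPM in the other libraries, CD163 22.97 CPM against at most 0.0812 CPM, and SPI1, a myeloid transcription factor gene, 14.1 CPM against at most 0.243 CPM. PTPRC, which encodes the leukocyte antigen CD45, had 12.5 CPM there and 0 counts in both shCtrl libraries. In the other 3 libraries, between 1 and 4 of the 12 genes of this list had 0 counts. ITGAM differed least, with 5.54 CPM against 2.46 CPM in shPML replicate 1. These levels were scaled to the library totals without a normalization factor, and the list was chosen after they were seen.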
